A study of Mus musculus with 14 samples.

Results

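Transcripts for the subunits of the mitochondrial respiratory chain were followed through 14 RNA-seq libraries of mouse neck skin. Members were all entries of the count table whose symbols start with mt-Nd, mt-Co, mt-Cytb or mt-Atp, with Nduf, Uqcr or Atp5, or with Cox followed by 4 to 8, plus Sdha, Sdhb, Sdhc and Sdhd. The 15 symbols containing -ps, which marks pseudogenes, were left out. The rule took 113 of 35328 genes, of which 100 lie in the nuclear genome and 13 in the mitochondrial genome. The nuclear members were 41 subunits of complex I, 8 complex I assembly factors (Ndufaf genes), 4 subunits of complex II, 8 of complex III, 21 of complex IV and 18 of complex V. Ndufa4 and Ndufa4l2 were placed with complex IV despite their symbols. A filter on low counts kept 110 members for testing, and Cox8c, Ndufa11b and Ndufs6b did not pass it, each with counts above 0 in at most 1 library.

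The respiratory chain is the set of protein complexes in the inner mitochondrial membrane that passes electrons from NADH and succinate to oxygen and pumps protons. Complex V, the ATP synthase, uses the resulting gradient to make ATP. The mitochondrial genome encodes core subunits of complexes I, III, IV and V, transcribed as long polycistronic RNAs from both strands, while complex II and all remaining subunits are made from nuclear genes and imported. Some complex IV subunits exist as isoform pairs in which one partner is widely expressed and the other is known from heart and skeletal muscle.

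All mice were labelled female, and the RNA was polyadenylated RNA from frozen, cryosectioned neck skin. Untreated wild-type C57BL/6J mice of 6 weeks gave 2 libraries. MC903, also known as calcipotriol, acts on the vitamin D receptor and inflames mouse skin, and it was put on shaved skin for 6 days, at 1 nmol in 100 µL a day, in all other groups. Of those, C57BL/6J mice of 6 weeks that received intraperitoneal isotype control antibody gave 3 libraries, and mice that received MAR1 gave 3. MAR1 binds the high-affinity receptor for IgE through its alpha chain, and both antibodies were given at 20 µg every other day, with 3 injections before MC903. The remaining groups, without injections, were on C57BL/6J and 6 to 7 weeks old: 3 libraries from Il4ra fl/fl mice (called fl/fl), and 3 from mice that carried Pdgfra-Cre as well (called cKO). In the cKO mice, Cre under the Pdgfra promoter, which is active in fibroblasts and related stromal cells, deletes the Il4ra gene, and the other skin cells keep it. The column names of the 2 untreated libraries differ by a suffix alone and may stand for 1 mouse, and nothing states whether the libraries of any group came from separate mice, so the p-values cover no more than the spread among these libraries, which may be technical. RNA from bulk skin cannot tell fewer cells of a type apart from less RNA per cell.

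Library totals ran from 5.78 to 55.3 M counts, and the 3 MAR1 libraries were the shallowest, at no more than 10.6 M counts. Il4ra, the gene deleted in the cKO mice, stood at 214, 145 and 176 CPM (counts scaled to the library size with TMM in edgeR) in fl/fl and at 70.6, 67.7 and 14.5 CPM in cKO. It also stood at 45.7, 23.2 and 8.998 CPM with MAR1 against 195, 178 and 192 CPM with isotype. All mice were labelled female, but in cKO library 1 the Y-chromosome gene Ddx3y had 69.8 CPM and Eif2s3y had 53.3 CPM. Neither, chosen after their values were seen, had a count in cKO library 2 or 3. Without cKO library 1, cKO against fl/fl had 7 nuclear and 2 mitochondrially encoded calls. Olfactory and vomeronasal receptor genes, known from sensory neurons of the nose, held 3.86 to 9.29% of the counts with MAR1, 0.269 to 0.439% with isotype, 0.467 to 2.58% in cKO and 0.0479 to 0.0768% in fl/fl. A list of 20 skeletal muscle genes held 1.26 to 5.91% of the counts in fl/fl, 2.13% in untreated library 2 and at most 0.576% in any other library. The part of either in the results was examined only by adding it as a covariate. Skin markers were present in every library, with 15 keratinocyte genes tested holding 0.609 to 4.68% of the counts and 12 dermal fibroblast genes 0.145 to 2.22%.

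Some protein-coding sequences of the mitochondrial genome overlap, so that reads there can belong to either member, and mt-Atp8 and mt-Nd4l show such overlaps on the same strand. The sequences of mt-Atp8 and mt-Nd4l are given from GENCODE M21 (build GRCm38), 5′ to 3′, with the bases shared with mt-Atp6 (chrM:7927-8607) and mt-Nd4 (chrM:10167-11544) in capitals. The overlap is 43 bases for mt-Atp8 and 7 bases for mt-Nd4l.
mt-Atp8 (chrM:7766-7969, plus strand): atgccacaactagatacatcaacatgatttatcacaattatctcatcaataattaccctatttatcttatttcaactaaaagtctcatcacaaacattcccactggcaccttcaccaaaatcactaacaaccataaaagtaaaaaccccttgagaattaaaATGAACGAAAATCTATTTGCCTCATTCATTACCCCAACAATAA
mt-Nd4l (chrM:9877-10173, plus strand): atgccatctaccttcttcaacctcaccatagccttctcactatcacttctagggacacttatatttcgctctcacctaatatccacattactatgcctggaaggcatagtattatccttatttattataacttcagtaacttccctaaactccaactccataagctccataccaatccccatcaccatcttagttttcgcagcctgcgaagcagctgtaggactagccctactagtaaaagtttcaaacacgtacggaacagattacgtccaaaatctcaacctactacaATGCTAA

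Promoters were available from RefSeq (build GRCm38.p6) for 76 of the nuclear members, as windows from 250 bases before to 50 after each gene's start. The core letters of the site bound by the transcription factor NRF1 (GCGCA, any base, GCGC) were searched on both strands. They occurred in 18 of the 76 member windows (23.7%) and in 4.60% of all 32851 windows. The member shares take a single window for each gene, while the shares of all windows count every window, those of members included. The ETS letters CCGGAAG occurred in 22.4% of member windows and 8.86% of all windows, and the YY1 letters AAGATGGCG in 9.21% and 1.40%. E-box letters (CANNTG) were as frequent in member windows (72.4%) as in all windows (72.3%). The 170 bases before the start are shown for Sdha and Cox6a1, which hold 3 and 2 copies of the NRF1 letters (capitals). They are also shown for Cox7a1 and Cox8b, muscle isoforms of complex IV that hold none. Cox6a2, another muscle isoform, had no window. A match is a description of letters and not evidence of binding.
Sdha (chr13:74350241-74350410, minus strand): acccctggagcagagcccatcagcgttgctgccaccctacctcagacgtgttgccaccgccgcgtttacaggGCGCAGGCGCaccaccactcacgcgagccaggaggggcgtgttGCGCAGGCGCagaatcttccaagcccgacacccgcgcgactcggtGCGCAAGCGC
Cox6a1 (chr5:115348959-115349128, minus strand): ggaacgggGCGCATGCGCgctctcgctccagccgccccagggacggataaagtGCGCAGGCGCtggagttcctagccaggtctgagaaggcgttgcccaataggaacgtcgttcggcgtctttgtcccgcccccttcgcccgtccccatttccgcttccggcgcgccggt
Cox7a1 (chr7:30184001-30184170, plus strand): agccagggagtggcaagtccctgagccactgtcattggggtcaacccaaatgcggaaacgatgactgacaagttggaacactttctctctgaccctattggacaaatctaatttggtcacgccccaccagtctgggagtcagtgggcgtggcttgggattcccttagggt
Cox8b (chr7:140900447-140900616, minus strand): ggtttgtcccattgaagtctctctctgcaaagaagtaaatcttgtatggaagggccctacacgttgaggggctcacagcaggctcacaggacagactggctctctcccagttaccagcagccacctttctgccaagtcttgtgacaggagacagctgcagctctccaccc

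The mitochondrially encoded members together held 2.57 and 4.23% of the counts in the untreated libraries and 2.14, 2.33 and 2.12% with isotype. With MAR1 they held 0.342, 0.244 and 0.128%. In fl/fl they held 4.18, 3.31 and 2.28%, and in cKO 1.71, 2.60 and 0.476%. The MAR1 libraries were therefore the lowest 3 of the 14, and the fourth lowest was cKO library 3.

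The nuclear members moved less. They held 1.26 and 1.46% of the counts in untreated skin, 1.39, 1.10 and 1.14% with isotype, 1.83, 1.29 and 0.973% with MAR1, 2.41, 1.51 and 1.43% in fl/fl and 1.83, 1.46 and 1.84% in cKO. The ranges of MAR1 and isotype overlapped.

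The ratio of mitochondrially encoded to nuclear counts was 2.03 and 2.90 in untreated skin and 1.84 ± 0.290 (SD, n = 3) with isotype. With MAR1 it was 0.187, 0.189 and 0.131, a mean of 0.169 ± 0.0328 (SD, n = 3). It was 1.85 ± 0.314 (SD, n = 3) in fl/fl. The cKO libraries differed among themselves, at 0.938, 1.78 and 0.258. No test was made on the ratio, since it is a score over members chosen with results known.

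**Figure D1:**
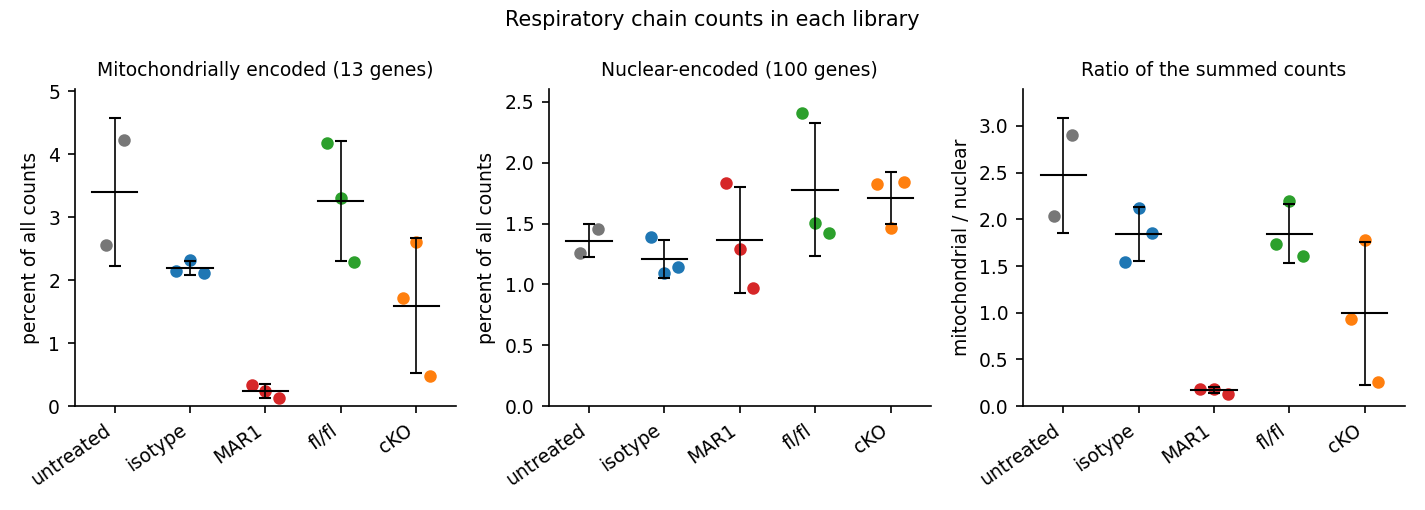
Percent of all counts held by the mitochondrially encoded members (left) and the nuclear-encoded members (middle), and the ratio of both sums (right), by group. Points are libraries, and black bars are the group mean and SD. The MAR1 ratios sit between 0.131 and 0.189, and the cKO ratios spread from 0.258 to 1.78.

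MAR1 was compared with isotype to see what the antibody changed in MC903-treated skin. Of the 13 mitochondrially encoded members, 9 fell and none rose, while 49.1% of all 20940 genes tested changed, 22.6% up and 26.5% down (edgeR quasi-likelihood test, Benjamini-Hochberg adjusted p under 0.05). All libraries of MAR1 were below all of isotype for 11 of the 13, as they were for 36.4% of all genes. The median log2 fold change was −2.30 over the 13 and 0 over all genes tested. Of the 97 nuclear members tested, 15 rose and 26 fell, with a median of −0.01. The split of the nuclear members depended on the scaling: RLE scaling in edgeR, which raised the median of all genes by 0.59, gave 34 higher and 18 lower, and DESeq2 gave 39 and 19. All genes turned likewise, to 6347 higher and 3645 lower of 20940 with RLE and 7334 and 4139 of 20577 with DESeq2. No mitochondrially encoded member was called higher under either, and 8 were called lower under each.

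The receptor gene share of every MAR1 library lay above that of every isotype library. Of 15 keratinocyte genes tested 8 fell and none rose, and their summed share was 0.852 to 1.53% with MAR1 and 2.75 to 4.68% with isotype. Of 12 dermal fibroblast genes 7 fell and 2 rose (0.145 to 0.199% of counts with MAR1, 0.376 to 0.453% with isotype), and the part of both cell types in the results was not tested. With the receptor gene share as a covariate, which was chosen after seeing the data, 0 nuclear and 0 mitochondrially encoded members were called, as were 0 of all 20940 genes, so the antibody and whatever the receptor gene share measures cannot be told apart here.

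The catalytic core of complex IV showed the widest range. mt-Co1, the subunit that binds oxygen, stood at 5000, 7096 and 5287 CPM with isotype and at 69.8, 36.0 and 26.5 CPM with MAR1. The groups did not overlap, and the log2 fold change was −7.04 ± 1.04 (SE, edgeR adjusted p = 0.00034), the lowest of any member. mt-Co3 fell from 4193, 4178 and 3700 CPM to 266, 272 and 108 CPM, a log2 fold change of −4.22 ± 0.64. mt-Co2, the subunit that takes electrons from cytochrome c, fell less, from 4890, 4841 and 4238 CPM to 1200, 1059 and 569 CPM, a log2 fold change of −2.30 ± 0.45.

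Among the mitochondrially encoded subunits of complex I, mt-Nd1 fell from 1934, 2082 and 1930 CPM to 121, 54.3 and 23.2 CPM, a log2 fold change of −4.90 ± 0.87. mt-Nd4 fell from 615, 724 and 843 CPM to 57.9, 33.9 and 25.0 CPM (log2 fold change −4.22 ± 0.74). mt-Nd2 fell by 1.60 and mt-Nd6, which is read from the other strand, by 2.01 on the log2 scale. The remaining 3 were not called. mt-Nd3 had a log2 fold change of −1.89 (edgeR adjusted p = 0.052), mt-Nd5 of −1.03 (adjusted p = 0.059) and mt-Nd4l of −0.72 (adjusted p = 0.20).

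mt-Cytb, the cytochrome b of complex III, stood at 1110, 1272 and 1287 CPM with isotype and at 31.3, 13.97 and 9.60 CPM with MAR1, a log2 fold change of −6.06 ± 1.04. The subunits of complex V split. mt-Atp6, part of the proton channel, fell from 2049, 1889 and 2219 CPM to 311, 149 and 94.9 CPM (log2 fold change −3.47 ± 0.69). mt-Atp8 stood at 55.8, 60.7 and 83.1 CPM with isotype and at 144, 63.5 and 30.1 CPM with MAR1, so that the groups overlapped, with a log2 fold change of 0.25 ± 0.49. Its sign turned to −0.50 without MAR1 library 1.

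The make-up of the mitochondrially encoded counts differed between MAR1 and isotype. mt-Co1 made up 23.5 to 29.8% of them with isotype and 1.68 to 2.40% with MAR1. mt-Co2 made up 20.0 to 23.0% with isotype and 38.5 to 51.4% with MAR1. mt-Nd5 made up 1.33 to 1.67% with isotype and 6.97 to 8.36% with MAR1, and mt-Atp8 0.255 to 0.393% and 2.73 to 4.63%. Library 3 of cKO resembled MAR1 in mt-Co1 (2.98%) and mt-Co2 (56.5%) but not in mt-Atp8 (0.344%), mt-Nd5 (2.70%), mt-Nd2 (2.16% against 6.22 to 10.5% with MAR1) or mt-Co3 (23.0% against 8.54 to 12.7%). The ranges of all these shares with MAR1 lay outside those with isotype.

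**Figure D2:**
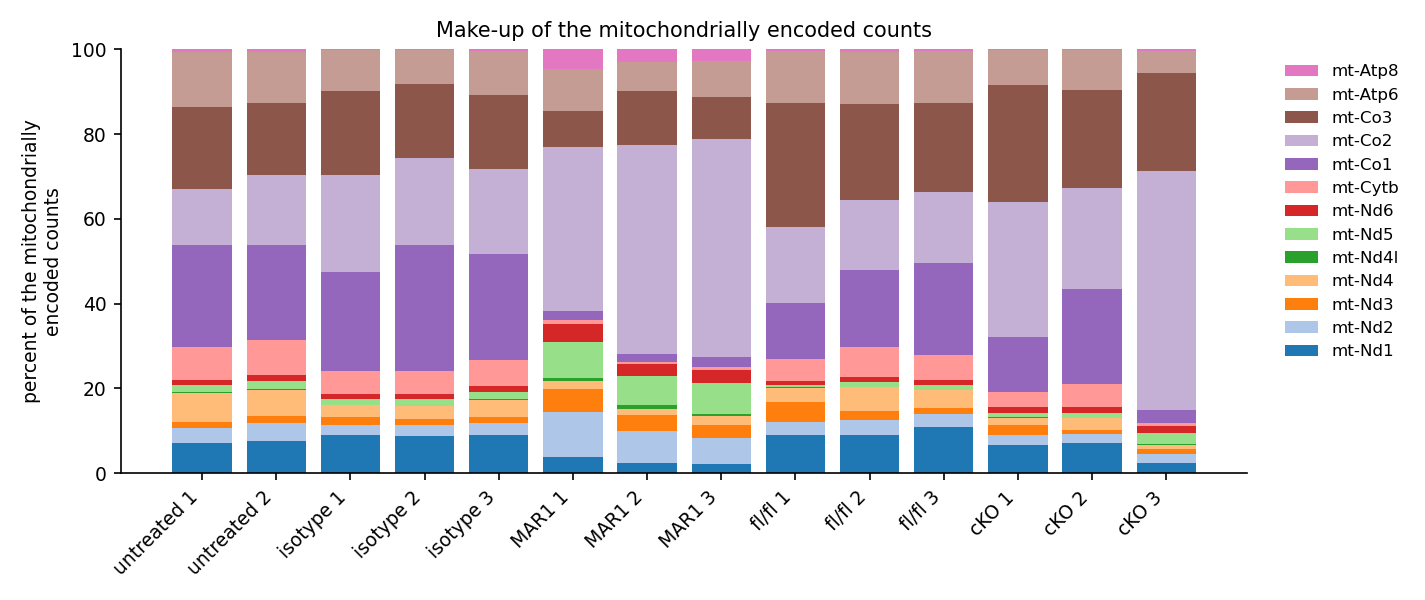
Percent of the mitochondrially encoded counts held by each of the 13 members, by library. mt-Co1 shrinks to 1.68 to 2.40% in the MAR1 libraries and 2.98% in cKO library 3, and mt-Co2 widens to 38.5 to 51.4% and 56.5%.

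Mitochondrial genes have near-identical copies in the nuclear genome, and reads shared with a copy cannot be assigned with certainty. In GENCODE M21 the share of 31-base words that also occur in other genes was 100% for mt-Co2, 99.9% for mt-Co3, 99.5% for mt-Atp6, 63.9% for mt-Co1 and 62.8% for mt-Nd4. It was 0% for mt-Nd1, 6.55% for mt-Cytb and 7.47% for mt-Atp8. Members with few shared words include mt-Nd1 and mt-Cytb, which fell, and mt-Atp8, which was not called. The listed copies together held 0.130 to 0.186% of counts with isotype and 0.0216 to 0.0552% with MAR1. Adding the copies to their members, an alternative chosen after seeing the data, gave 10 of 13 called lower. One copy rose: Gm28439, which shares 846 words with mt-Nd4, had 0 counts in every isotype library and 103, 58.7 and 30.1 CPM with MAR1, and was named after its values were seen.

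Nuclear subunits of complex V held some of the lowest fold changes. Atp5f1b, the catalytic beta subunit, stood at 1038, 1040 and 968 CPM with isotype and at 146, 132 and 76.5 CPM with MAR1. Its log2 fold change was −3.10 ± 0.45 (SE, edgeR adjusted p = 0.00030). Atp5pf, the coupling factor 6 of the stalk, fell from 122, 88.1 and 108 CPM to 4.80, 10.4 and 5.40 CPM (log2 fold change −3.95 ± 0.59). Atp5f1c, the gamma subunit of the rotor, fell by 3.14 and Atp5mc2, a gene for the proton-carrying ring, by 2.23 on the log2 scale. All transcript words of Atp5mc2 also occur in other genes, so its reads are uncertain.

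Other complex V subunits rose. Atp5f1e, the small epsilon subunit of the rotor, stood at 177, 114 and 125 CPM with isotype and at 760, 375 and 291 CPM with MAR1, a log2 fold change of 1.78 ± 0.56 (edgeR adjusted p = 0.018). Atp5mg and Atp5mk, small membrane subunits, rose by 1.73 and 1.48 on the log2 scale. The share of words that also occur in other genes was 85.4% for Atp5mg and 0% for Atp5f1e. Reads of Atp5mg are therefore uncertain, and Atp5mk had no matched transcript. In all, 6 of 18 rose and 6 fell, with a median of −0.68, beside 22.6 and 26.5% of all genes.

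In complex III the core proteins Uqcrc1 and Uqcrc2 both fell. Uqcrc2 went from 119, 140 and 128 CPM to 2.14, 9.55 and 8.10 CPM, a log2 fold change of −4.30 ± 0.70 and the lowest of the nuclear members. Uqcrc1 went from 234, 197 and 202 CPM to 53.6, 66.8 and 32.1 CPM (log2 fold change −2.05 ± 0.34). Uqcrfs1, the Rieske iron-sulfur protein, fell by 1.67, while the hinge protein gene Uqcrh rose by 1.51 on the log2 scale. Complex II, made only from nuclear genes, had 2 of 4 lower, beside 26.5% of all genes. Sdhc, a membrane anchor, had a log2 fold change of −2.02 ± 0.39 and Sdha, the flavoprotein, of −1.32 ± 0.28. Sdhb (−0.74) and Sdhd (−0.76) were not called (edgeR adjusted p = 0.076 and 0.051).

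Of 39 nuclear subunits of complex I, 6 rose and 8 fell, with a median of 0.33. Over all genes 22.6% rose and 26.5% fell, and neither count of complex I exceeded these shares. Ndufa2 rose from 121, 77.9 and 82.5 CPM to 643, 359 and 274 CPM (log2 fold change 2.18 ± 0.55). Ndufab1, the mitochondrial acyl carrier protein, rose by 1.54, Ndufb2 by 1.69 and Ndufa5 by 1.82 on the log2 scale. Of the words of Ndufb2, 45.4% also occur in other genes. Ndufb4c and Ndufa10 had the lowest values among those that fell, at −2.51 and −1.80. Ndufb4 shares 360 words with Ndufb4c, which had no matched transcript, so reads of Ndufb4c are uncertain. Of the 8 assembly factors 4 fell, with Ndufaf4 lowest, from 34.8, 33.1 and 35.8 CPM to 9.17, 8.74 and 3.60 CPM. Ndufaf7, an arginine methyltransferase for complex I assembly, rose from 23.5, 25.2 and 23.7 CPM to 46.6, 68.1 and 84.9 CPM (log2 fold change 1.46 ± 0.28).

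In complex IV, 1 of 20 nuclear subunits rose and 3 fell, both below the shares of all genes (22.6 and 26.5%). Cox5a, which rose, stood at 140, 105 and 115 CPM with isotype and at 391, 290 and 199 CPM with MAR1. Of its words, 47.2% also occur in other genes. Cox8a fell from 170, 138 and 179 CPM to 14.2, 26.2 and 19.5 CPM, a log2 fold change of −3.02 ± 0.51. Its muscle partner Cox8b was at 12.1, 4.14 and 6.65 CPM and at 59.0, 17.5 and 8.10 CPM, and was not called (edgeR adjusted p = 0.16). The share of Cox8b in the pair was therefore 2.91 to 6.64% with isotype and 29.4 to 80.6% with MAR1.

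**Figure D3:**
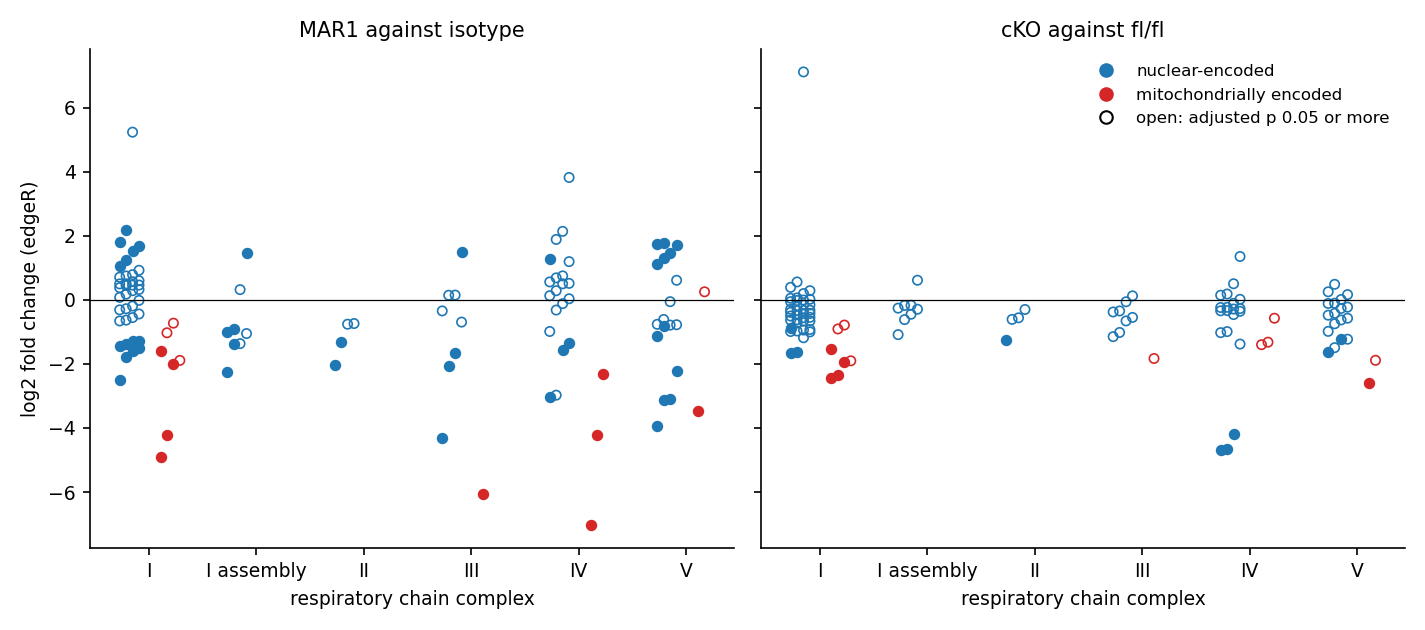
Log2 fold changes of the 110 members tested, by complex, for MAR1 against isotype (left) and cKO against fl/fl (right). Blue points are nuclear-encoded and red points mitochondrially encoded members. Filled points passed an adjusted p under 0.05 in edgeR, 41 blue and 9 red on the left and 9 blue and 5 red on the right. The highest open point in both panels is Ndufb11b, a gene of low counts with a mean of 0.105 CPM with isotype and 0 in fl/fl.

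The members that rose with MAR1 had shorter coding sequences. The median coding length was 315 bases for the 13 nuclear members that rose and had a transcript in GENCODE M21, 518 bases for the 24 that fell and 411 bases for the 53 not called. Across the 90 nuclear members with a length, Spearman's rho between coding length and log2 fold change was −0.44, against 0.01 across 17218 genes. Across the 13 mitochondrially encoded members it was −0.53. These values share libraries and depth, genes are not independent replicates, and no p is given. Ndufaf7, with 1308 coding bases, was the longest that rose, the next being Atp5pd with 483, and Cox8a, with 207 bases, was the shortest that fell. In cKO against fl/fl the same rho was 0.02 over the nuclear members. It was −0.57 in fl/fl against untreated (−0.195 across all genes with a length) and −0.53 in fl/fl against isotype (−0.22). A negative rho was therefore not particular to MAR1.

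**Figure D4:**
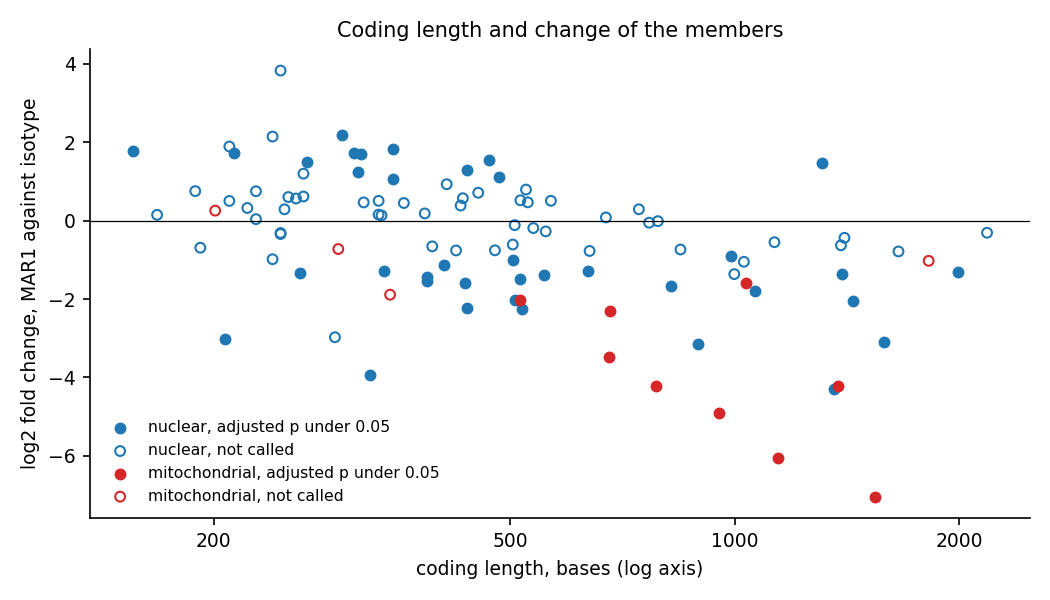
Coding length (log axis, bases) and log2 fold change for MAR1 against isotype of the members with a GENCODE M21 transcript. Filled points were called at an adjusted p under 0.05. Members that rose have a median of 315 coding bases and nuclear members that fell 518.

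Genes that feed the chain were also counted. Of 19 genes of the tricarboxylic acid cycle and pyruvate dehydrogenase, none rose and 14 fell with MAR1, with a median of −1.47. Ogdh fell by 2.68, Idh3g by 4.37 and Idh2 by 2.02 on the log2 scale. Glycolysis had 0 higher and 17 lower of 22 (median −1.68), with Eno1, Pfkfb3 and Hk1, those of smallest p, at −3.45, −2.72 and −2.93. Among 12 carriers and electron-transfer proteins 8 fell and none rose, with Cyc1, the cytochrome c1 of complex III, at −3.78, Vdac1 at −2.03 and Ucp2 at −4.92. The share of all genes that fell was 26.5%, as above.

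Genes that express the mitochondrial genome had 4 higher and 11 lower of 29 (median −0.90), while their summed share was 0.0670 to 0.0707% with isotype and 0.0881 to 0.139% with MAR1, higher in every MAR1 library. Elac2, which trims mitochondrial transfer RNAs, fell by 3.07 and Hsd17b10 by 2.42, while the rRNA methyltransferase gene Tfb1m rose by 3.22 on the log2 scale. Of 16 regulators of mitochondrial biogenesis 3 rose and 5 fell, with Gabpb1 at −1.94, Yy1 at −1.32 and Ppargc1b at 2.64. Mitochondrial ribosomal proteins had 10 higher and 31 lower of 78 and cytosolic ones 9 and 38 of 88. The summed share of the former was 0.294 to 0.357% with isotype and 0.468 to 0.486% with MAR1, again higher in every MAR1 library, and that of the latter overlapped. Assembly factors of complex IV were split, 6 higher and 7 lower of 20 (summed share 0.0446 to 0.0520% with isotype and 0.0958 to 0.112% with MAR1), with Sco1 and Cox14 at 2.28 and 1.94 and Surf1 at −1.48. Other assembly factors had 2 higher and 9 lower of 23 (Timmdc1 1.87, Tmem242 −2.79, Sdhaf1 −1.92) and import genes 2 and 8 of 20 (Timm17b 2.09, Timm23 −1.83, Timm44 −2.06). Over all genes 22.6% were higher and 26.5% lower.

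Members were also counted by the NRF1 letters in their promoter, without a test. Of the 18, 4 rose and 6 fell with MAR1, with a median of −0.76. Of the 58 without them 8 rose and 15 fell, with a median of 0.29. Over all genes 22.6% rose and 26.5% fell. In cKO against fl/fl none rose, and 2 of the 18 (median −0.55) and 4 of the 58 (median −0.34) fell, beside 5.98% of all genes.

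cKO was compared with fl/fl for the effect of deleting Il4ra in Pdgfra-expressing cells. Of the 13 mitochondrially encoded members 5 fell and of the 97 nuclear members 9 fell, and none rose. Over all genes 18.7% changed, 12.7% up and 5.98% down. The median was −1.83 for the mitochondrially encoded members, −0.37 for the nuclear ones and 0.03 for all genes tested. With 1 library left out at a time the nuclear median ran from −0.56 to 0.26, the latter without fl/fl library 1, and the mitochondrially encoded median from −2.14 to −0.95, the latter without cKO library 3. Leaving out fl/fl library 1 also moved the median of all genes by 0.29, and leaving out cKO library 3 by 0.31.

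mt-Atp8 had the smallest p of the members in this comparison. It stood at 179, 198 and 152 CPM in fl/fl and at 23.0, 48.0 and 15.9 CPM in cKO, with no overlap and a log2 fold change of −2.60 ± 0.52 (SE, edgeR adjusted p = 0.0051). It stayed called without any 1 of the 14 libraries, with log2 fold changes from −2.81 to −1.97. mt-Nd4 stood at 1834, 1997 and 1306 CPM in fl/fl and at 273, 706 and 43.8 CPM in cKO, a log2 fold change of −2.33 ± 0.68. mt-Nd3 fell by 2.43, mt-Nd2 by 1.93 and mt-Nd4l by 1.54 on the log2 scale. Of the words of mt-Nd3 and mt-Nd4l, 98.1 and 98.9% also occur in other genes, so their reads are uncertain. With 1 library left out at a time, the calls of mt-Nd4, mt-Nd3, mt-Nd2 and mt-Nd4l were lost in 6, 9, 10 and 11 of the 14 fits, and mt-Nd3 ran from −3.03 to −1.02, the latter without fl/fl library 1. The other 3 were nearest 0 without cKO library 3, at −1.47, −1.15 and −0.95.

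The other 8 were not called. The cKO libraries lay far apart for mt-Co1, which stood at 7037, 6440 and 6601 CPM in fl/fl and at 2047, 5866 and 137 CPM in cKO, a log2 fold change of −1.32 ± 0.81 (edgeR adjusted p = 0.26). mt-Cytb was at −1.83, mt-Nd1 at −1.90, mt-Atp6 at −1.89, mt-Co3 at −1.40, mt-Nd5 at −0.91, mt-Nd6 at −0.78 and mt-Co2 at −0.57. The cKO library with the lowest mt-Co1, library 3, also had the highest receptor gene share of its group (2.58%), and library 2, with the highest mt-Co1, the lowest (0.467%).

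The nuclear decreases were largest for the muscle isoforms of complex IV. Cox7a1 stood at 135, 22.8 and 12.6 CPM in fl/fl and at 3.96, 0.424 and 2.41 CPM in cKO, a log2 fold change of −4.65 ± 0.98 (edgeR adjusted p = 0.0071). Cox6a2 stood at 396, 104 and 135 CPM and at 23.4, 0.0653 and 0.999 CPM (log2 fold change −4.69 ± 1.40). Cox8b stood at 350, 52.1 and 75.5 CPM and at 16.7, 0.294 and 9.28 CPM (log2 fold change −4.18 ± 1.203). Without fl/fl library 1 the log2 fold changes were −2.60 for Cox7a1, −3.55 for Cox6a2 and −2.53 for Cox8b, and without cKO library 1 they were −5.36, −8.77 and −5.08. The call was lost in 0, 4 and 3 of the 14 fits. Library 1 of fl/fl was the highest and library 2 of cKO the lowest for all 3 isoforms.

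The same 2 libraries held the highest and lowest share of the skeletal muscle list, 5.91 and 0.00586% of counts. Of the 20 muscle genes, 13 fell and none rose in cKO against fl/fl. Myh2 fell by 3.90, Mylpf by 6.29 and Myl1 by 6.04 on the log2 scale. With a skeletal muscle score as a covariate, 0 nuclear and 0 mitochondrially encoded members were called, beside 1468 of all 20940 genes, and Cox8b turned to a log2 fold change of 0.72. With the receptor gene share as a covariate both counts were 0 as well, and 14 of all genes were called. Markers of other tissues also fell in cKO against fl/fl: 6 of 10 B cell genes, 5 of 10 salivary gland genes (1 rose) and 5 of 7 red blood cell genes. Their summed shares in fl/fl were 0.000230 to 0.196%, 0.000810 to 1.97% and 0.181 to 1.26%, and at most 0.00609%, 0.00225% and 0.0229% in cKO. Of 12 dermal fibroblast genes 3 fell and of 15 keratinocyte genes 2 rose, and the part of these tissues in the results was not tested.

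**Figure D5:**
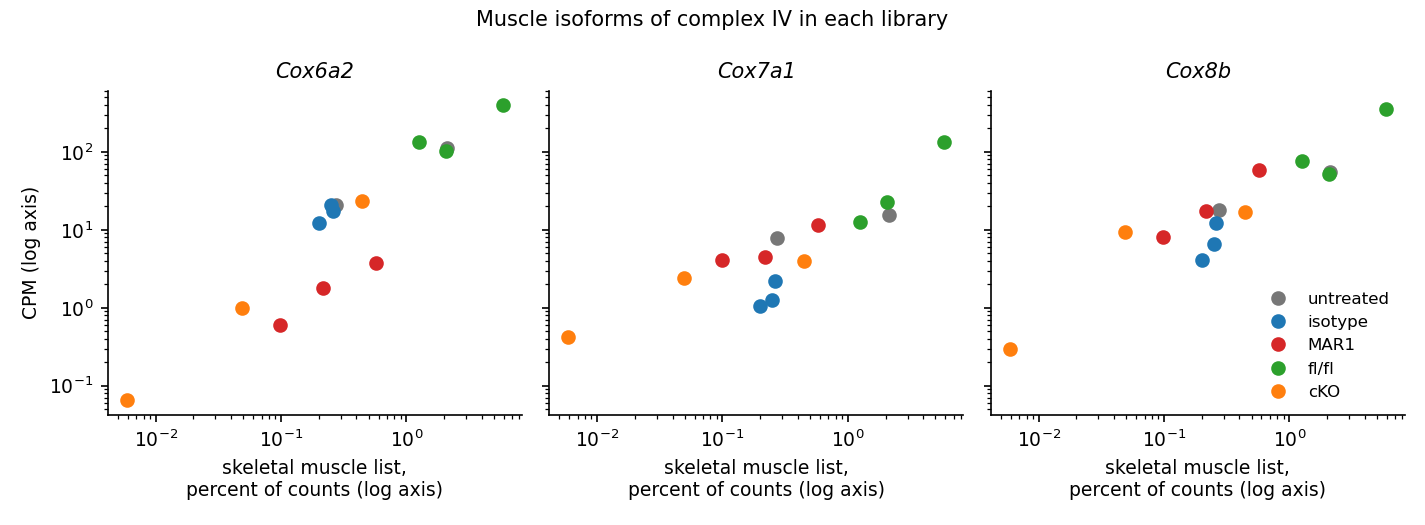
CPM of Cox6a2, Cox7a1 and Cox8b (log axis) against the percent of counts held by the skeletal muscle list (log axis) in each of the 14 libraries. The libraries of fl/fl and untreated library 2 are at the upper right, and cKO library 2, with 0.00586% muscle counts, is at the lower left.

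The widely expressed partners were not called. Their log2 fold changes were 0.15 for Cox6a1, 0.19 for Cox7a2 and −1.38 for Cox8a, the last with an edgeR adjusted p of 0.059. The share of Cox7a1 in its pair with Cox7a2 was 31.6, 13.8 and 6.23% in fl/fl and 1.99, 0.201 and 0.791% in cKO. The share of Cox6a2 in its pair with Cox6a1 was 38.6, 18.3 and 23.9% in fl/fl, 3.75, 0.0151 and 0.153% in cKO, 5.56 and 28.3% in untreated skin and at most 6.29% with isotype or MAR1.

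The other 6 nuclear members that fell were outside the isoform pairs. Among them, Ndufb4c has uncertain reads, since it shares words with Ndufb4. Atp5mc1, a gene for the same ring as Atp5mc2, stood at 599, 228 and 274 CPM in fl/fl and at 151, 132 and 72.3 CPM in cKO, a log2 fold change of −1.63 ± 0.39 (edgeR adjusted p = 0.011). Atp5mc2 fell by 1.23, Ndufb4c by 1.67, Ndufa10 by 1.63, Sdhc by 1.24 and Ndufa8 by 0.88 on the log2 scale. Leaving out 1 library lost these calls in 4 to 10 of the 14 fits. The groups of each of these did not overlap, while 12.4% of all genes were lower in cKO without overlap.

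Energy genes outside the chain fell as well in part. Glycolysis had 1 higher and 12 lower of 22, with Aldoa at −3.29, Gpi1 at −1.73 and Pfkfb3 at −1.60. The tricarboxylic acid cycle had 0 higher and 5 lower of 19 (Ogdh −1.52, Idh2 −1.22). Carriers had 0 and 6 of 12, with Slc25a4, the adenine nucleotide carrier of muscle and heart, at −2.74, Vdac1 at −1.13 and Ucp3 at −3.22. Genes that express the mitochondrial genome had 3 higher (Mterf3 2.49, Tfb1m 1.34, Fastkd1 1.37) and 0 lower of 29. Over all genes 12.7% were higher and 5.98% lower, as above. Eno3 of the glycolysis list is also in the muscle list, and the part of muscle in these counts was not tested.

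The counts in cKO against fl/fl changed with single libraries. Without fl/fl library 1, 1 nuclear and 1 mitochondrially encoded member were called, and without cKO library 3, 2 and 1. Leaving out cKO library 2 gave 4 and 4, and leaving out fl/fl library 3 gave 5 and 2. Over all genes 315, 163, 587 and 823 were called lower in these fits, in that order, against 1252 with every library. Libraries outside the comparison mattered as well: without untreated library 2 there were 5 and 1, and without any 1 isotype library or MAR1 library 2 there were 2 mitochondrially encoded calls, as without cKO library 1. The fit without untreated library 2 moved the median of all genes by 0.45 and called 3941 of them higher and 468 lower. Without fl/fl library 2, 1 mitochondrially encoded member was called. Fitted on only the groups compared, 1 and 1 were called, with 150 of all 17037 genes lower.

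The difference between the cKO and the MAR1 effect was tested as an interaction. Over all genes 7.96% differed, 6.13% with a higher and 1.82% with a lower value for cKO. Of the nuclear members 2 were higher and 3 lower, and of the mitochondrially encoded ones 2 were higher and 1 lower. The MAR1 log2 fold change was below the cKO one for mt-Co1 (difference 5.72 ± 1.21, SE), mt-Co3 (2.83 ± 0.80), Atp5f1b (2.48) and Uqcrc2 (3.28). mt-Atp8 (−2.86 ± 0.70), Cox7a1 (−6.79), Cox8b (−6.07) and Atp5f1e (−2.76) had the lower value in the cKO comparison. With RLE scaling the nuclear split was 1 and 6, and with DESeq2 3 and 16, while all genes split 437 and 467 with RLE and 1728 and 1992 with DESeq2. Without any 1 isotype library no member was called, and without MAR1 library 3 there was none either, in fits that called 1 or 2 of all genes. There were 18 nuclear and 8 mitochondrially encoded calls without cKO library 3, 13 and 6 without untreated library 2, 14 and 3 when fl/fl library 1 was left out, 13 and 4 when fl/fl library 3 was, and 1 and 1 without cKO library 1. All genes called in these fits were 4024 of 20675, 3766 of 21661, 2020 of 20786, 4864 of 20903 and 502 of 20878. The median of all genes moved by 0.30, 0.45, 0.28, 0.29 and 0.04 in the same order. Without MAR1 library 2 or fl/fl library 2 there were 1 and 0, and without cKO library 2 there were 3 and 2. These fits called 235 of 20472, 129 of 20829 and 1135 of 20884 genes.

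Isotype was compared with untreated skin to describe MC903-treated skin, though these groups differ in antibody injections as well as in MC903. Of 97 nuclear members 1 fell, and over all genes 3.07% changed, 1.35% up and 1.72% down. Ndufa4l2, a paralogue of Ndufa4 known as a target of the hypoxia response, stood at 149 and 112 CPM in untreated skin and at 28.2, 36.0 and 19.7 CPM with isotype, a log2 fold change of −2.22 ± 0.41 (SE, edgeR adjusted p = 0.015). Its share in the pair with Ndufa4 was 45.4 and 35.1% in untreated skin and 7.72 to 12.9% with isotype. White fat genes held 0.895 to 1.12% of counts in untreated skin and 0.185 to 0.208% with isotype (5 of 10 fell), and dermal fibroblast genes 1.32 to 2.22% and 0.376 to 0.453% (4 of 12 fell), and their part in this result was not tested. The call was lost when either untreated library, isotype library 1 or isotype library 3 was left out. Of the mitochondrially encoded members 0 were called (edgeR), 2 had an unadjusted p under 0.05, and DESeq2 called 1.

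fl/fl was also compared with untreated skin, from which it differs in genotype and age range as well as in MC903. No member was called in edgeR, with 37 nuclear and 0 mitochondrially encoded members and 3837 of all genes at an unadjusted p under 0.05. DESeq2 called 12 nuclear members higher and 0 mitochondrially encoded ones, and 995 of all 20069 genes higher and 1130 lower. In edgeR 1.72% of all genes were called, 0.769% higher and 0.950% lower. For 62 nuclear members every fl/fl library was above both untreated ones, as for 12.6% of all genes. The nuclear median was 0.78 and the mitochondrially encoded one −0.05, against 0 for all genes. Ndufa4l2 stood at 54.0, 74.4 and 151 CPM in fl/fl, which overlapped untreated skin.

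Both MC903-treated control groups were also compared with each other, fl/fl against isotype, which differ in genotype, injections and age range at once. Of the nuclear members 7 were higher in fl/fl and none lower, with 5.22% of all genes called, 1.25% higher and 3.97% lower. The medians were 0.96 for nuclear and 0.98 for mitochondrially encoded members and −0.10 for all genes. Cox7a1 had a log2 fold change of 5.22 ± 1.01 (edgeR adjusted p = 0.033), and Ndufa4l2 of 1.74 ± 0.38. Atp5f1e, Atp5mc1, Ndufb4, Ndufb10 and Ndufv3 were higher by 2.18, 1.55, 1.37, 1.26 and 1.16 on the log2 scale. Of the mitochondrially encoded members 0 were called (edgeR), 3 had an unadjusted p under 0.05 and DESeq2 called 1.

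No nuclear member was called without fl/fl library 1, which had the highest muscle share and 1212 CPM of Atp5f1e against 387 and 288 CPM in the other 2. None was called without any 1 isotype library, without MAR1 library 2 or 3 or without fl/fl library 2 either, in fits that called 0 to 72 of all genes where 1094 were called with every library. The fit without fl/fl library 1 called 77. None was called with the muscle score or receptor gene share as a covariate. Across the 90 nuclear members with a length, Spearman's rho between coding length and the log2 fold change was −0.53, against −0.22 across 17218 genes.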

How the data were processed

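The authors deposited 1 table of estimated counts (expected counts, not normalized) per gene symbol, per the file's values and header, for 14 libraries of polyadenylated RNA. Tools and build are listed with no roles in the submitters' processing notes (Salmon 1.2.1; DESeq2 1.44.0; GRCm39). Whether strand was used in counting is not given in the sources used here, so overlapping genes such as Uqcrc2 and Pdzd9 may share reads. Counts were rounded. edgeR 4.0.16 under R 4.3.3 fitted the 14 libraries together, with a mean for each of 5 groups: TMM scaling, filterByExpr (20940 genes), robust quasi-likelihood test, 9 residual degrees of freedom, two-sided, Benjamini-Hochberg adjusted over all genes, called under 0.05. The SE is the log2 fold change divided by the square root of F. The fit was tested on simulated data.

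Members, gene lists and tests were chosen with earlier results of these data known. Named are all mitochondrially encoded members, up to 8 called nuclear members per direction and comparison by smallest p with a mean of at least 1 CPM, isoform pairs, and up to 3 called members per list. The muscle list has 20 genes. Transcript lengths and shared 31-base words came from GENCODE M21 (104 of 113 members matched, 15 by a RefSeq synonym). Libraries of a group differed beyond counting noise (chi-square per degree of freedom at least 18.6), which does not show that they came from separate mice. Alternatives were other scalings, filters and fits, DESeq2 1.42.0, covariates and leaving out each library.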

Additional observations from a re-analysis of the deposited data

Results flagged for a closer look

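For 8 of the 110 members tested the cKO effect and the MAR1 effect differed by the interaction test (edgeR, adjusted p under 0.05). Over all genes 7.96% did, so members were not called more often than genes in general. The log2 difference, cKO effect minus MAR1 effect, was 5.72 for mt-Co1, 2.83 for mt-Co3, 2.48 for Atp5f1b and 3.28 for Uqcrc2, all of which fell with MAR1. It was −6.79 for Cox7a1 and −6.07 for Cox8b, which fell in cKO together with the skeletal muscle list. It was −2.86 for mt-Atp8, which fell in cKO and overlapped between MAR1 and isotype. It was −2.76 for Atp5f1e, which rose with MAR1. With any 1 isotype library left out, none of the 8 was called, and only 1 of all genes was.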

How the results depend on the processing

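Most counts of called members changed with some of the settings tried. Losses of calls with the receptor gene share, and in the interaction with the muscle covariate, covered nearly all genes: 0, 14 and 63 of 20940 were called in MAR1 against isotype, cKO against fl/fl and fl/fl against isotype with the former, and 0 in the interaction with the latter. Counts are given as nuclear then mitochondrially encoded members. With the receptor gene share as a covariate (chosen after seeing the data), MAR1 against isotype had 0 and 0, cKO against fl/fl 0 and 0, fl/fl against isotype 0 nuclear, and the interaction 16 nuclear. The interaction then called 3790 of all 20940 genes. With the skeletal muscle covariate, cKO against fl/fl had 0 and 0, fl/fl against isotype 0 nuclear, and the interaction 0 and 0. Of all 20940 genes, 1468 were then called in cKO against fl/fl and 277 in fl/fl against isotype. DESeq2 gave 19 and 8 for cKO against fl/fl, 4 and 1 for isotype against untreated, 12 nuclear for fl/fl against untreated, 41 and 1 for fl/fl against isotype, and 19 and 5 for the interaction. All genes called were then 6003 of 20069, 2216 of 18573, 2125 of 20069, 3377 of 18573 and 3720 of 18075, in that order. With only the groups compared, the counts were 1 and 1 for cKO against fl/fl, 6 and 6 for isotype against untreated, 1 and 1 for fl/fl against isotype, and 3 nuclear for the interaction. Over all genes these fits called 1410 of 17037, 3444 of 17504, 460 of 16710 and 998 of 19635. A stricter filter gave 14 nuclear members for cKO against fl/fl and 14 for fl/fl against isotype, and no filter gave 3 for the interaction. All genes called were 4110 and 1243 of 17836 with the stricter filter, and 1485 of 26347 with no filter. Scaling on the nuclear members gave 4 and 1 for cKO against fl/fl, 0 nuclear for isotype against untreated and 3 for fl/fl against isotype. It moved the median of all genes by 0.29 in cKO against fl/fl, by −0.67 in fl/fl against untreated and by −0.72 in fl/fl against isotype. Of all 20771 genes it called 3133 in cKO against fl/fl, 281 in isotype against untreated and 2916 in fl/fl against isotype. Summing the untreated libraries gave 0 nuclear for isotype against untreated, with 102 of all 21698 genes called. The cause of these shifts was not tested. Fits on only the groups compared also hold fewer samples, and the part of that was not tested either.

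Replicate numbers did not pair the samples: same-numbered isotype and MAR1 libraries had correlations of deviations of −0.144, −0.094 and 0.063, and fl/fl and cKO libraries of 0.077, 0.032 and −0.056. The replicate block gave 1 nuclear member for fl/fl against isotype and 1 for the interaction, and moved no other count of calls by over 1.5 times. It called 175 and 537 of all 20940 genes in fl/fl against isotype and the interaction. With 1 library left out at a time, nuclear counts ran from 29 to 44 for MAR1 against isotype, 1 to 11 for cKO against fl/fl, 0 to 1 for isotype against untreated, 0 to 1 for fl/fl against untreated, 0 to 7 for fl/fl against isotype and 0 to 18 for the interaction. Mitochondrially encoded counts ran from 8 to 11, 1 to 5, 0 to 0, 0 to 0, 0 to 0 and 0 to 8 in the same order. All genes called ran from 7343 to 10771, 2335 to 4409, 108 to 1320, 65 to 736, 0 to 3176 and 1 to 4864.

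Signs that turned were the following log2 fold changes. In MAR1 against isotype, mt-Atp8 ran from −0.50 (without MAR1 library 1) to 0.65, and mt-Nd4l was 0.21 and mt-Nd5 0.032 with the receptor gene share. In cKO against fl/fl, the receptor gene share gave mt-Co1 1.36, mt-Cytb 0.61, mt-Nd1 0.17, mt-Nd5 0.20, mt-Nd6 0.77 and Ndufa10 0.16, the muscle covariate gave Cox8b 0.72, and mt-Co2 ran from −0.68 to 0.11 (without fl/fl library 1) and was 0.05 without cKO library 3. The fits without fl/fl library 1 and without cKO library 3 moved the median of all genes by 0.29 and 0.31. The group ratios of mitochondrially encoded to nuclear counts moved by less than 1 SD in 3 variants. These left out the 8 isoforms listed as tissue-restricted (muscle isoforms among them), left out assembly factors, or added the nuclear copies. The shallow MAR1 libraries limit what could be called among low members.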
